A study of Mus musculus with 8 samples.

Results

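The baseline expression hierarchy of control neurospheres was read from 4 of the 8 arrays of the series, all of wild-type cells: the 2 WT arrays and the 2 arrays of cells given DMSO. Every gene was ranked within each of these arrays by its signal. No test between groups was made, and where the WT and DMSO arrays are set side by side their values are a description. Neurospheres are floating balls of dividing neural stem cells and their early descendants. The cells came from the hippocampus of mice aged 7 to 9 weeks and were grown first with EGF, bFGF and PDGFbb (10 ng/ml), then dissociated and grown again as secondary spheres with EGF (20 ng/ml), bFGF (20 ng/ml) and heparin.

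The WT arrays hold cells of the 129/ICR background after 6 days of secondary culture, WT 1 from a female and WT 2 from a male per the labels. The DMSO arrays hold C57BL/6 cells, both from males, grown for 5 days and then for 24 h with DMSO, the solvent used for a compound in the same series. The concentration of DMSO is not given in the sources used here, nor is the number of animals behind a culture. Strain, treatment and the timing of culture differ together between the WT pair and the DMSO pair and cannot be told apart. The cells had left the tissue and had been passaged once in mitogens, so the tissue label describes their origin.

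Adult hippocampal stem cells normally lie in the dentate gyrus, where they resemble astrocytes and give rise mainly to neurons. In culture, EGF and bFGF keep them dividing and hold back differentiation. Nestin (Nes) and vimentin (Vim) are their intermediate filaments, Sox2 is a transcription factor that maintains the stem cell state, and Fabp7 is the brain fatty acid binding protein of radial glia.

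Levels are the log2 signal of a gene's probe minus the 75th percentile of all probes on the same array, so 0 marks that percentile. Each gene's percentile among the 18350 genes measured was also taken on each array. A gene was called detected where the scanner software found its signal well above background. Strong genes were detected on all 4 arrays and lay in the top 10% on each. Weak genes were detected on all 4 and lay below the 60th percentile on each, and the remaining genes detected on all 4 were called middle. Values stand throughout in the order WT 1, WT 2, DMSO 1 and DMSO 2. Probes bind their targets with unequal strength, so a higher signal of one gene than of another does not show that it has more RNA. Among the 6534 genes with several probes, the median gap between the highest and lowest probe of a gene was 2.11 log2 units, and 314 genes (4.81%) had a probe detected on all 4 arrays and another detected on none. A class is therefore a statement about a probe's signal on these arrays, with the best-detected probe standing for its gene.

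The arrays differed in brightness. The 75th percentile of the signal ranged from 249 units on WT 2 to 824 on WT 1, and genes detected from 12153 (66.2%) on WT 2 to 14321 (78.0%) on DMSO 1. WT 1 and DMSO 1 lay on one slide and the other arrays on 2 further slides, and WT 2 was scanned on another day. Of 153 negative control spots, between 0 and 3 per array were called well above background. Levels correlated across the 18350 genes with a Pearson r of 0.957 to 0.981 between pairs of arrays, which describes shared probes as well as shared RNA. The lowest level of a detected gene was -6.08 on WT 1, -3.93 on WT 2, -5.97 on DMSO 1 and -5.14 on DMSO 2, so the floor was highest on WT 2, the dimmest array. The part of brightness in which genes were detected was not tested. Fewer cells of a type and less RNA per cell cannot be told apart in such bulk samples.

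Over all genes, 11880 (64.7%) were detected on all 4 arrays and 3532 (19.2%) on none. The strong class held 1469 genes (8.01%), the middle class 6601 (36.0%) and the weak class 3810 (20.8%). The remaining 2938 genes (16.0%) were detected on 1 to 3 arrays, most often on all but WT 2 (914 genes). The undetected class depends on the flag: by the software's laxer test of a signal above background, 984 genes were undetected on all 4 arrays. The edge of the strong class ran between genes such as Sdc3, whose percentiles lay between 90.1 and 91.3, and Glul, which missed the class on one array with a range from 89.96 to 92.9.

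**Figure D1:**
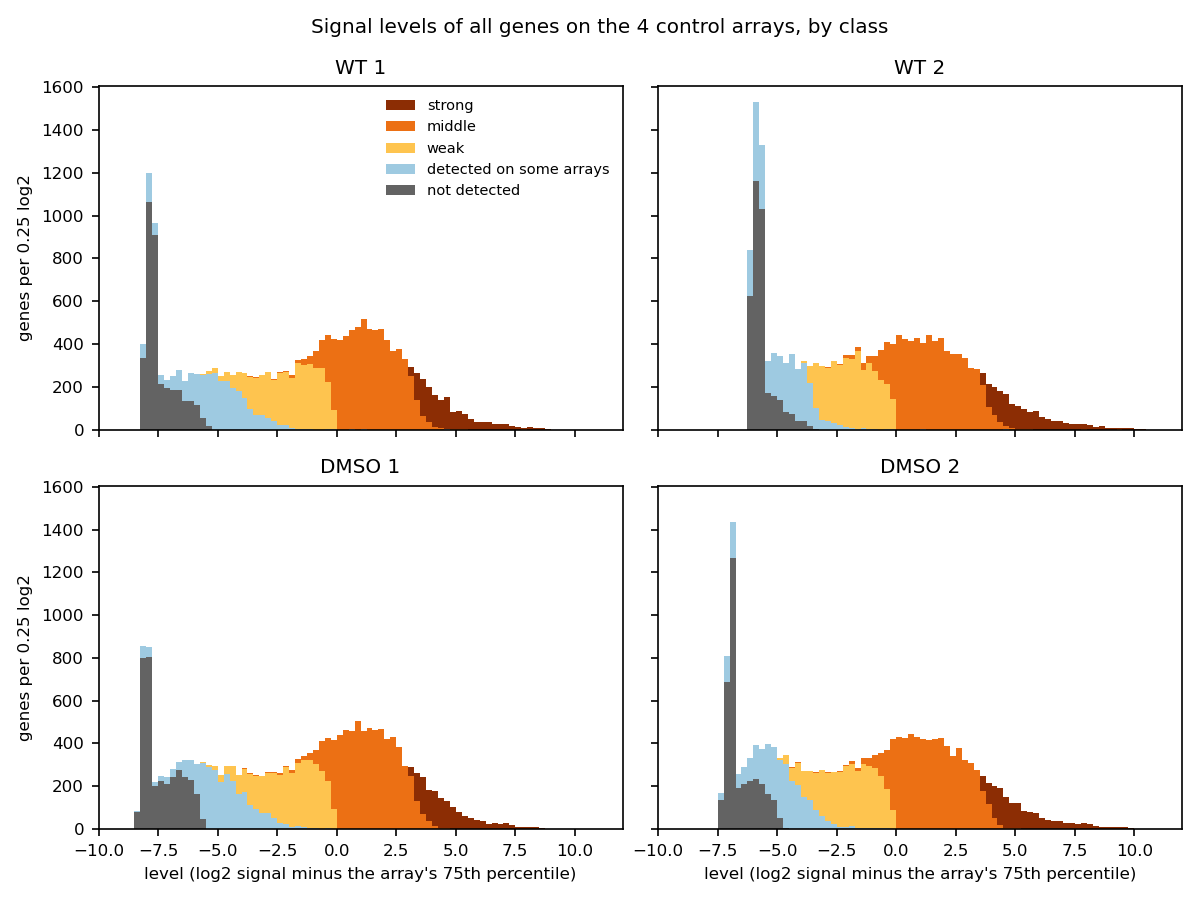
Histograms of the level of each of 18350 genes (x axis, log2 signal minus the array's 75th percentile) on the 4 control arrays, with genes per 0.25 log2 unit on the y axis and colours for the 5 classes. Undetected genes form a narrow peak at the left end of each array, and that end lies further right on the dim WT 2 array (lowest value -6.17) than on WT 1 (-8.08).

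The 20 genes with the highest mean level were led by the machinery of protein synthesis and chromatin. Among them were 13 genes of ribosomal proteins, 5 of histone H2A, and Ckb, the brain creatine kinase. Rps18, of the small ribosomal subunit, stood at 8.78, 10.27, 8.66 and 9.98. H2ac1, the first in rank, stood at 8.85, 10.33, 8.74 and 10.08, but histone H2A genes are near-identical copies, so their probes may share targets. Ckb, which buffers ATP in brain cells, stood at 8.61, 9.82, 8.44 and 9.52. These levels were higher on the second array of each pair, as was the median of all strong genes (4.41, 5.07, 4.39 and 4.98), whereas percentiles stayed at 99.9 or above for all 3.

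Promoters were compared between classes, since their letters play no part in the ranking. The RefSeq table (GRCm38.p6) gives 250 bases before to 50 bases after a gene's start. It matched 84.6% of strong, 83.2% of middle, 80.8% of weak and 80.6% of undetected genes, while genes detected on 1 to 3 arrays matched at under 80% and are not described. The median number of CG pairs in 300 bases was 22 in strong and middle genes, 18 in weak genes and 3 in undetected genes. Promoters rich in CG pairs are known from widely used genes, and poor ones from many tissue-restricted genes. The promoters printed here show the range, each with its CG pairs in capitals, 5′ to 3′: the strong markers Fabp7 (chr10:57784673-57784972, + strand, 6 CG pairs) and Vim (chr2:13574061-13574360, + strand, 11), the strong citric acid cycle gene Mdh2 (chr5:135778399-135778698, + strand, 27), and the liver gene Alb (chr5:90460620-90460919, + strand, 3), which was not detected.
Fabp7: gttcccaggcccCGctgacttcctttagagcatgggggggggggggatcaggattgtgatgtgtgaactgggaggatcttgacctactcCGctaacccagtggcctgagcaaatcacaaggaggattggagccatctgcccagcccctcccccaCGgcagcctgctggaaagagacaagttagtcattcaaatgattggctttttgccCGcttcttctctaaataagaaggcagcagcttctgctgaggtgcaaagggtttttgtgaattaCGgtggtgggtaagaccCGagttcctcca
Vim: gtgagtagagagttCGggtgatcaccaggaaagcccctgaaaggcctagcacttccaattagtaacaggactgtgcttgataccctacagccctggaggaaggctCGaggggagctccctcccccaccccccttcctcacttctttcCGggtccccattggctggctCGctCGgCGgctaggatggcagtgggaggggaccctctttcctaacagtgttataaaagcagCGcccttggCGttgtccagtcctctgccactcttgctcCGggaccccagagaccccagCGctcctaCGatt
Mdh2: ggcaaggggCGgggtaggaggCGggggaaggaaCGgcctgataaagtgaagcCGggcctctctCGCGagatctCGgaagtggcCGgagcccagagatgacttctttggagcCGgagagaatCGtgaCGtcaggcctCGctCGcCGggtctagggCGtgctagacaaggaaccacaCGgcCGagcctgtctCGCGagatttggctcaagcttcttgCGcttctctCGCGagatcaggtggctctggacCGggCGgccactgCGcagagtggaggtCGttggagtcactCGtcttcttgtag
Alb: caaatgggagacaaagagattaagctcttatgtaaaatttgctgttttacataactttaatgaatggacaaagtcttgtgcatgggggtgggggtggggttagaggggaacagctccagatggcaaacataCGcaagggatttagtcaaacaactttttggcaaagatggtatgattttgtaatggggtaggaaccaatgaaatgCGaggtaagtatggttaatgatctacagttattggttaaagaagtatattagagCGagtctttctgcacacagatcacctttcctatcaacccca
Fabp7 reached the top of the hierarchy with fewer CG pairs than most strong genes, whose lower quartile was 16, and Vim also lay under that quartile. The letters TATAAA, the core of a TATA box, were found on either strand in 9.38% of strong, 6.02% of middle, 8.45% of weak and 24.6% of undetected genes, and in 14.2% of all 27025 genes of the table. GGGCGG, the core of an Sp1 box, which itself holds a CG pair, was found in 66.9%, 68.8%, 58.1% and 19.7% of the same classes and in 35.9% of the whole table. CCGGAA, an ETS-type motif that also holds a CG pair, stood at 35.9%, 30.0%, 21.5% and 5.92%, and at 15.2% in the table. CCAAT, the core of a CCAAT box, stayed close to the 37.9% of the whole table, at 41.0%, 39.5%, 37.7% and 38.2%. The whole table also holds genes outside the 5 classes. Over all genes measured the shares were 12.05% for TATAAA, 52.0% for GGGCGG, 21.05% for CCGGAA and 38.5% for CCAAT. The 21.5% of weak genes with CCGGAA was thus close to that of all genes measured. A match of these letters describes the window and is not a bound site. Strong genes with 1 probe kept a median of 22 CG pairs and undetected genes with 1 probe a median of 3. The median span of a gene was 11.1 kb in strong, 25.6 kb in weak and 9.90 kb in undetected genes, so both ends of the hierarchy held shorter genes than the weak class.

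**Figure D2:**
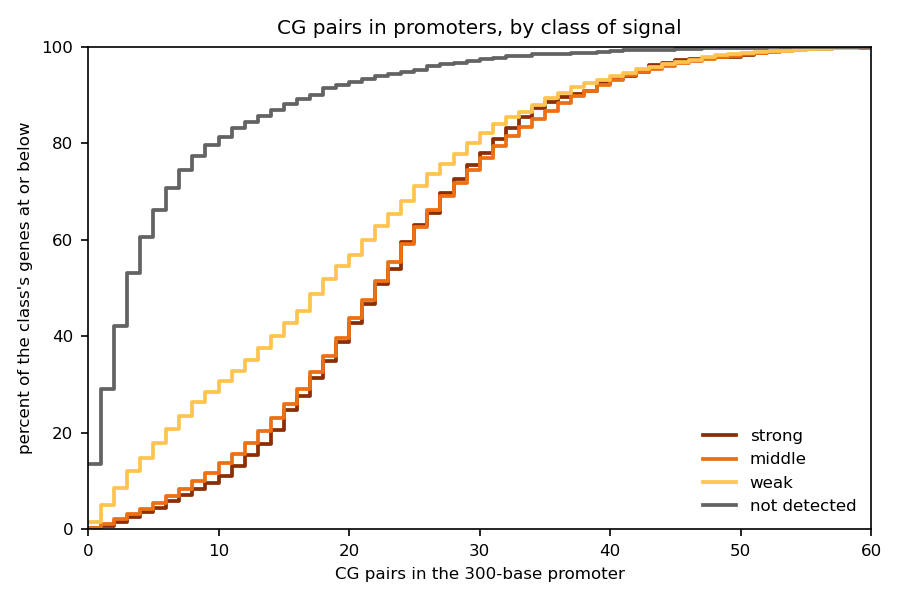
Cumulative share of genes (y axis, percent of the class) by the number of CG pairs in the promoter (x axis) for strong, middle, weak and undetected genes. The curves of strong and middle genes lie together around a median of 22, and undetected genes lie far to the left with a median of 3.

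All 4 stem cell markers were detected on all 4 arrays, and 3 of them were strong. Fabp7 stood at 7.87, 8.86, 8.02 and 8.61, between the 99.8th and 99.9th percentile. Vim stood at 5.97, 7.01, 6.04 and 7.04 and Nes at 5.30, 5.43, 4.93 and 5.42, both inside the top 4% of genes on every array. Sox2 stood lower, in the middle class, at 2.06, 2.61, 2.47 and 2.58. Its percentiles lay between 81.6 and 85.2, and the arrays overlapped with no order between the pairs.

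Among the 25 measured genes of the wider neural stem cell list, 23 were detected on all 4 arrays (64.7% of all genes were), 5 were strong (8.01% of all genes) and none was undetected. Ptprz1, a receptor phosphatase of radial glia, stood at 6.46, 6.29, 6.67 and 6.06, and Slc1a3, the glutamate transporter GLAST, was the fifth strong gene. The factors Lhx2, Rfx4, Sox9, Sox21, Msi1, Msi2 and the dentate stem cell factor Nr2e1 were middle. Hes5, a target of Notch signalling, had the widest spread of the detected members, at 2.87, 2.68, 5.27 and 5.16, high on both DMSO arrays. Hes1, Id4, Pax6 and Prom1 were weak although detected. Prom1, which encodes the surface marker CD133, stood at -2.48, -2.82, -3.72 and -4.18, and Pax6 at -1.83, -2.45, -1.32 and -2.20.

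Astrocyte genes, many of which stem cells of the adult hippocampus share, lay mostly high, with a few at the lower end. Of 18 measured, 15 were detected on all 4 arrays and 9 were strong, with a median percentile of 91.8 against 50.1 for all genes, and none was undetected. Glul (glutamine synthetase), Sox9, the glutamate transporter Slc1a2 and Clu (clusterin) were middle. Cst3, a secreted protease inhibitor, stood at 5.68, 6.88, 6.10 and 6.61, and Mlc1, a membrane protein of astrocyte end feet, at 5.51, 6.67, 5.57 and 6.29. Sparcl1, a secreted synapse-promoting protein, stood at 6.13, 6.68, 5.86 and 5.20. Acsbg1, Aldoc, Apoe, Aldh1l1, S100b and Ndrg2 were strong as well, and Apoe and Aldoc read higher on both DMSO arrays than on both WT arrays. The remaining 5 members lay lower. Gfap, the intermediate filament of astrocytes, stood at -7.66, -5.74, -3.40 and -3.18 and was detected on the DMSO arrays only. The water channel Aqp4 was detected on WT 1 and DMSO 1, and the connexin Gjb6 on DMSO 1. Gja1, the other astrocyte connexin, was weak at -1.30, -1.50, -1.52 and -1.77, as was the bicarbonate transporter Slc4a4.

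Genes of oligodendrocyte precursors, which also arise in hippocampal neurospheres, were largely detected. Of 15 measured, 13 (86.7%) were detected on all 4 arrays, against 64.7% of all genes, 3 (20.0%) were strong, against 8.01%, and none was undetected, against 19.2%. The lineage factor Olig1 stood at 6.98, 7.36, 6.86 and 7.42, within the top 1% on every array. Bcan, the proteoglycan brevican, stood at 6.03, 6.51, 6.08 and 6.22, and Olig2 at 4.17, 4.01, 4.09 and 4.35. The surface marker Cspg4 (NG2) was middle at 4.19, 3.19, 4.41 and 3.33, lower on the second array of each pair. Gpr17, a receptor of committed precursors, varied most, at 2.90, 1.75, 5.02 and 3.76, and Pdgfra, the receptor of PDGF, was middle. Tnr, a matrix protein, was detected on all but WT 2.

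Myelin genes of mature oligodendrocytes had a median percentile of 45.4, against 75.2 for the precursor genes and 50.1 for all genes. None of 14 was strong, against 8.01% of all genes. On all 4 arrays 9 (64.3%) were detected, close to the 64.7% of all genes. Undetected was 1 (7.14%), against 19.2% of all genes. Cnp, an enzyme of early myelin membranes, stood at 2.13, 2.10, 2.57 and 2.60. Mbp, Cldn11, Ugt8a, Gal3st1 and Aspa were weak, Mal, Mobp, Fa2h and Opalin were detected on 1 to 3 arrays, and Mog, a late marker of myelin, was detected on none.

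Neuronal genes lay low for the most part. Of 28 measured, 12 were detected on all 4 arrays, none was strong and 7 were undetected (19.2% of all genes were). Map2, a dendritic microtubule protein, stood at 3.01, 3.94, 3.18 and 2.85, and the RNA-binding Elavl4 at 2.41, 2.19, 2.33 and 2.40, so not every gene known from neurons was dim. Tubb3, a tubulin of young neurons, stood near the 75th percentile of probes at -0.20, 1.01, 0.08 and 1.11, and Dcx, which marks migrating neuroblasts, was weak. Gap43, a growth cone protein, stood at 1.31, 1.41, -0.75 and 0.43. The neurofilament gene Nefl split the pairs, at 0.58, 0.21, -4.01 and -2.80, high on both WT arrays. The factors of granule neuron formation Neurod1, Eomes and Tbr1 were undetected, as were the interneuron factors Dlx1 and Dlx2, the vesicular glutamate transporter Slc17a7 and the neuronal stathmin Stmn2. Other genes of the same cells were detected: Gad1, an enzyme of interneurons, was middle, the proneural Neurog1 was weak, and the granule neuron factor Prox1, Dlx5 and Gad2 were detected on all but WT 2. Rbfox3 (NeuN) was weak at -3.23, -2.82, -3.06 and -2.92.

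**Figure D3:**
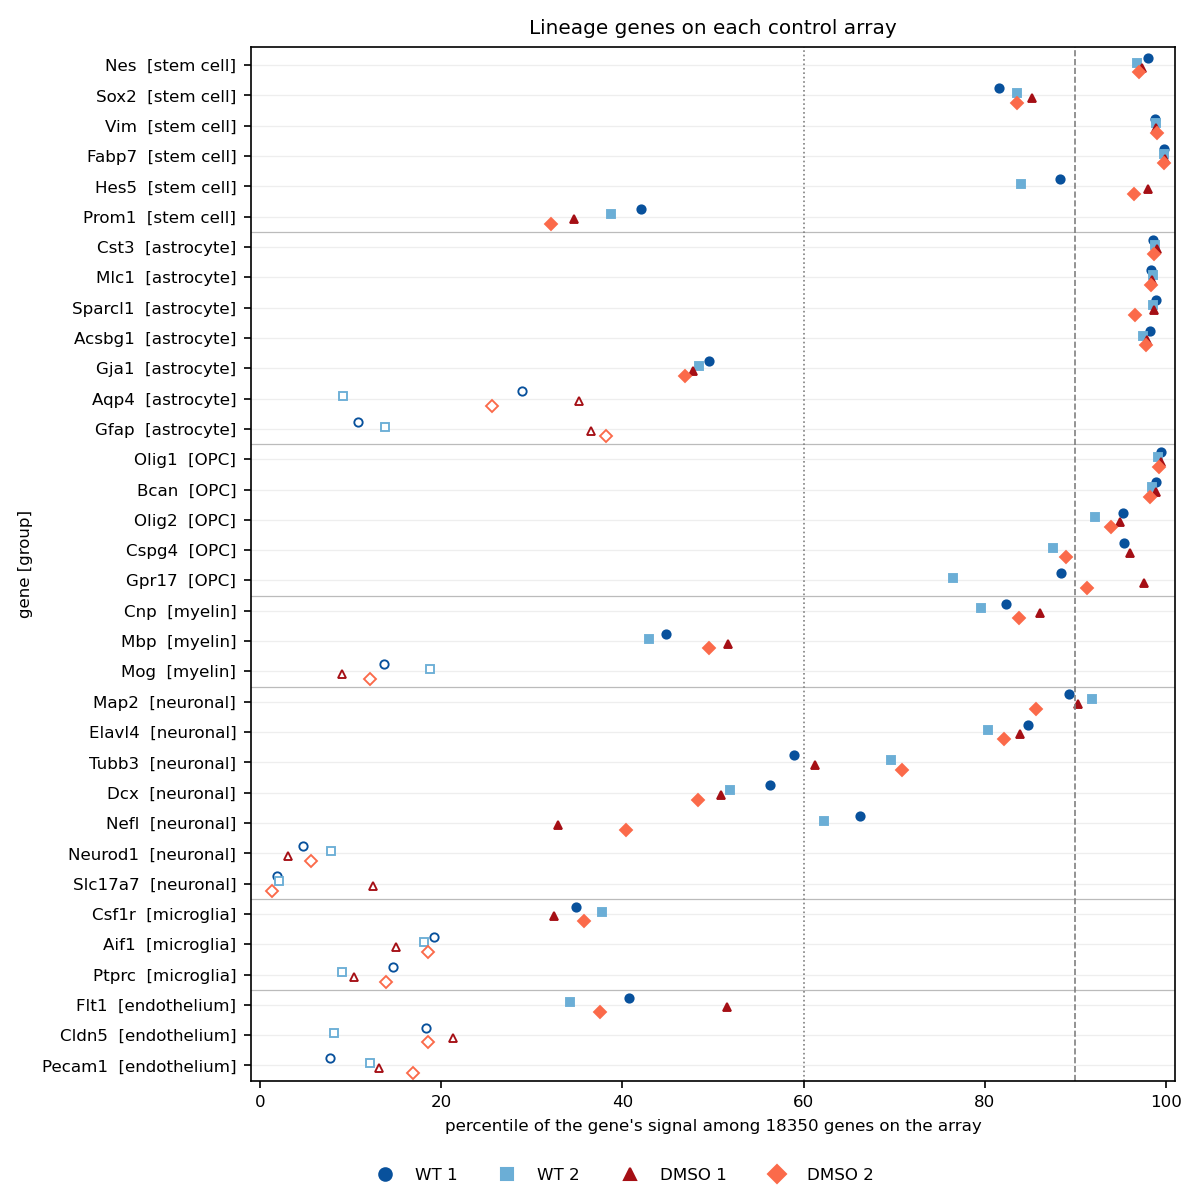
Percentile of 34 lineage genes (y axis, gene and group) among the 18350 genes of each array (x axis), with 1 symbol per array, open where the gene was detected on fewer than 4 arrays. The dashed line marks the 90th and the dotted line the 60th percentile; Fabp7, Vim, Nes, Cst3, Mlc1, Olig1 and Bcan lie at the right edge on every array, and Neurod1, Slc17a7, Mog and Ptprc at the left.

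Regional transcription factors lay low for the most part: of 23 measured, 9 (39.1%) were detected on all 4 arrays, against 64.7% of all genes. A further 7 (30.4%) were undetected, against 19.2% of all genes. Zic1 stood at 2.06, 2.44, 3.81 and 3.13 and Zbtb20, a hippocampal factor, at 1.22, -0.27, 1.46 and 0.03. The midbrain and hindbrain factors En2 and Gbx2 were weak, as were Nkx6-1 and the cortical factors Emx1 and Emx2, with Emx1 at -3.01, -3.04, -2.54 and -2.36. Undetected were Otx2, En1, the ventral forebrain factors Nkx2-1 and Gsx2, and the posterior genes Hoxb5, Hoxc8 and Hoxd8. Hoxa5, Hoxb3 and Hoxb4 were detected on 3 arrays each.

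Genes of division were detected throughout. All 17 measured were detected on all 4 arrays and 8 were strong. The D-type cyclin Ccnd2 stood at 6.52, 5.92, 6.11 and 6.55, the replication helicase subunit Mcm6 at 5.31, 6.30, 5.16 and 6.18, and Pcna, the replication clamp, at 5.20, 5.68, 4.80 and 5.75. Mki67, which marks cycling cells, stood at 5.21, 4.50, 5.21 and 4.34. The mitotic kinases Plk1 and Aurka were strong and Aurkb, Bub1, Cdk1 and Top2a middle. Inhibitors of cyclin-dependent kinases were detected beside them, with 7 of 7 on all 4 arrays. Cdkn1a (p21) was strong at 4.19, 4.70, 3.21 and 4.01, and Cdkn2a, the INK4a/ARF gene, was middle at 0.04, 0.81, 0.48 and 1.76, higher on the second array of each pair.

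Most markers of other brain cell types were weak or not detected on all arrays. Of 14 microglial genes 9 (64.3%) were undetected, against 19.2% of all genes, including Aif1, Cx3cr1, Itgam, Ptprc, Trem2 and Tyrobp. By the laxer flag 1 of the 14 was undetected, as was 1 of the 28 neuronal genes and none of the genes of other organs. Csf1r was weak at -3.81, -2.97, -4.10 and -3.59. The endothelial genes Cldn5, Pecam1, Cdh5, Tek and Tie1 were undetected, 38.5% of the 13 measured against 19.2% of all genes. None of the 13 exceeded the weak class. Flt1, a VEGF receptor, stood at -2.75, -3.50, -1.02 and -3.29. Among ependymal and choroid plexus genes, 5 of 11 (45.45%) were undetected, against 19.2% of all genes, Ttr among them. However, Foxj1, a factor of ciliated cells, and the dynein light chain Dynlrb2 were middle and Folr1 was weak. Of 14 pericyte, smooth muscle and fibroblast genes, Rgs5, Des and Lum (21.4%) were undetected, close to the 19.2% of all genes. Pdgfrb, Col1a1, Abcc9, Kcnj8 and Dcn were detected on 1 array each. Acta2 (smooth muscle actin) stood apart as strong, at 4.72, 4.11, 4.41 and 4.72. Its 3 probes disagreed, however: 2 were detected on all 4 arrays, and the lowest had a mean level of -6.24. Tagln was middle at 0.57, 0.88, 0.39 and 1.01.

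Genes of other organs served as a check of what detection means. Of 20 such genes 9 (45%) were undetected, against 19.2% of all genes, among them Alb, Apoa1, Umod and Gcg. However, 5 (25%) were detected on all 4 arrays, against 64.7% of all genes. Lalba, a milk protein gene, stood at -0.38, 2.38, -0.13 and 0.14, and Pomc, a pituitary hormone precursor, at -0.77, 0.34, -0.10 and 0.40. The sperm protamine gene Prm1 was weak at -2.78, -2.28, -2.37 and -2.63. Of its 3 probes, 2 were detected on all 4 arrays. Detection in the weak class, and in places above it, is thus found for genes with no known part in these cells. Among blood genes the T cell gene Cd3e stood at -2.62, -0.65, -2.62 and -2.44, detected on all 4 arrays with its highest value on WT 2, while Ptprc was undetected.

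Sex-linked genes followed the labels. Xist, the transcript of the inactive X chromosome, stood at 4.58, -5.74, -7.62 and -6.52 and was detected on WT 1 only, the array labelled female. The Y-linked genes Eif2s3y (-7.72, 1.21, 0.25 and 0.26), Ddx3y, Kdm5d and Uty were detected on the 3 arrays labelled male and not on WT 1.

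**Figure D4:**
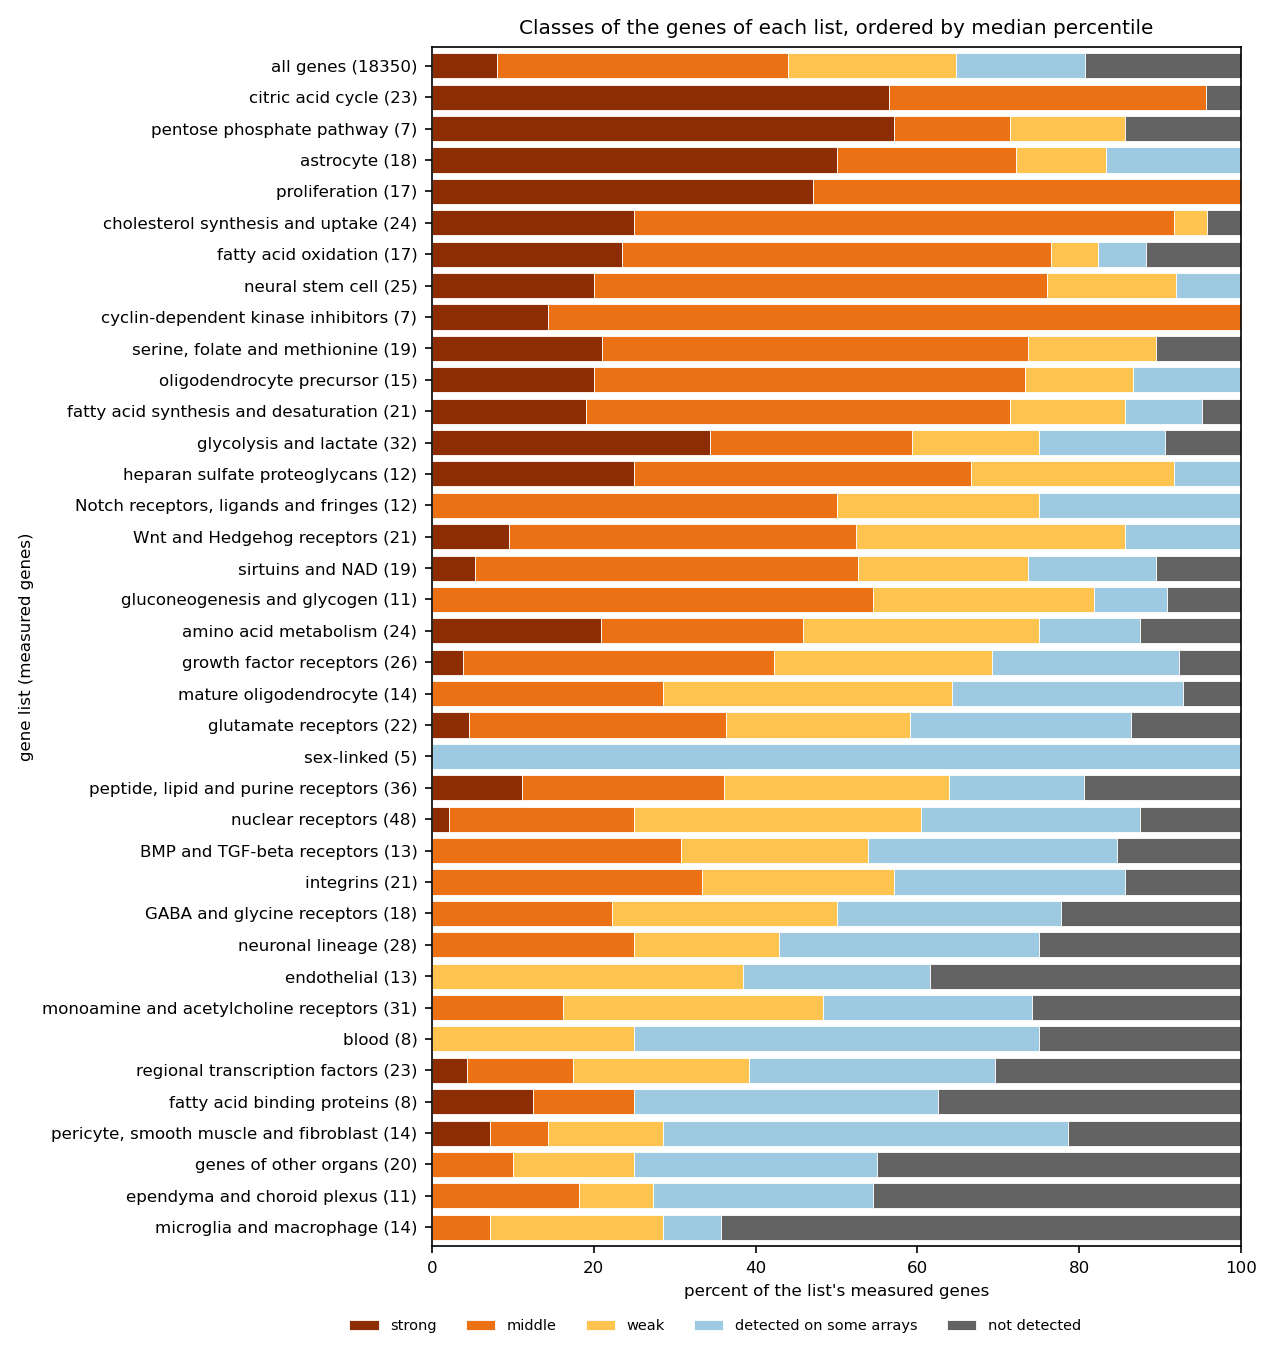
Share of each list's measured genes (x axis, percent; the number of genes stands in brackets) in the strong, middle, weak, partly detected and undetected classes, with lists ordered by median percentile and all genes on top. The citric acid cycle list leads in median percentile, with 56.5% strong genes, and the microglia and macrophage list is last with 64.3% undetected.

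Receptors as a domain were seldom strong. Of 260 measured, 12 (4.62%) were strong, against 8.01% of all genes, 164 (63.1%) were detected on all 4 arrays and 35 (13.5%) were undetected. None of the receptors named here for the growth factors of the medium was strong. Egfr, the EGF receptor, was in the middle class at 3.06, 2.77, 3.29 and 2.77. The 90th percentile of genes lay at 3.133, 3.587, 3.127 and 3.515, so Egfr was above it on DMSO 1 only. Fgfr1, the main bFGF receptor of neural stem cells, was chosen after its values were seen because bFGF was in the medium, and was middle with percentiles between 53.5 and 70.8. Fgfr3 varied more, at 1.07, -0.69, 2.06 and 0.78, Fgfr2 was detected on all but WT 2, and Fgfr4 on 2 arrays. The only strong growth factor receptor of 26 was Ntrk2, which encodes the BDNF receptor TrkB, at 3.96, 4.87, 4.61 and 4.70. Its relative Ntrk3 was middle at 1.76, 1.23, 2.17 and 1.38. Igf1r was middle and Insr weak, Ret was undetected, and Met and Ngfr were weak, with Met at -3.45, -3.50, -3.75 and -3.55.

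Heparan sulfate proteoglycans, which hold FGFs at the cell surface, were better represented. Of 12 measured, 11 (91.7%) were detected on all 4 arrays and 3 (25%) were strong, against 64.7% and 8.01% of all genes. Agrn, a matrix proteoglycan, stood at 5.87, 5.95, 6.22 and 5.67, the glypican Gpc1 at 4.42, 5.75, 4.46 and 5.22, and the syndecan Sdc3 at 3.34, 3.80, 3.33 and 3.53. Sdc4 differed between the pairs, at 1.91, 2.05, -0.88 and 0.04. Integrins, the receptors of the extracellular matrix, held no strong gene among 21. At the 8.01% of all genes a list of that size would hold few. Itgb1, the common beta chain, stood at 2.41, 2.18, 2.21 and 2.15, and Itgb5 at 1.55, 1.93, 1.82 and 2.06. Its partner Itgav was middle too, and Itga6, a laminin receptor chain, fell low on one array, at 1.91, -0.09, 2.33 and 1.69. Itga9 showed the same split as Sdc4, at 1.74, 1.66, -2.15 and -2.08.

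Among receptors of developmental signals, Hedgehog and Wnt receptors included 2 strong genes of 21 (9.52%), close to the 8.01% of all genes. Smo, the transducer of Hedgehog signals, stood at 4.55, 4.72, 4.32 and 4.47, and the Wnt receptor Fzd9 at 3.14, 4.98, 3.86 and 4.44. Ptch1, the Hedgehog receptor that restrains Smo, was middle, and Fzd5 and Fzd8 were weak. All 21 genes of this list were detected on at least 1 array. Notch1, Notch2 and Notch3 were middle, with Notch3 at 1.57, 0.99, 2.34 and 0.82 and Notch1 at 0.86, 1.19, 1.26 and 0.73. The inhibitory ligand Dll3 led its list at 3.27, 3.71, 3.05 and 3.07, Dll1 was middle, Jag1 weak, and Dll4 and Jag2 were detected on 2 arrays and 1 array. Of 13 receptors for BMP and TGF-beta none was strong, but at the 8.01% of all genes a list this small would hold few strong genes. The type I BMP receptor Bmpr1a stood at 1.65, 2.03, 1.59 and 1.59, and Acvrl1, known from endothelium, was undetected.

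Receptors of transmitters were detected on all 4 arrays in 13 of 22 glutamate (59.1%), 9 of 18 GABA and glycine and 15 of 31 monoamine and acetylcholine receptor genes (48.4%), against 64.7% of all genes. Grm5, a metabotropic glutamate receptor, was the only strong member of 22 glutamate receptor genes, at 4.10, 4.50, 3.85 and 3.77. The AMPA receptor subunit Gria2 followed at 4.11, 2.84, 4.54 and 3.12, lower on the second array of each pair, and Gria4 at 2.25, 2.61, 2.46 and 1.93. The obligatory NMDA receptor subunit Grin1 was weak at -2.53, -1.52, -3.09 and -3.06. Grin2c split the pairs, at 1.88, 0.36, -2.08 and -2.11, while Grm2, Grm6 and Grm8 were undetected. Of 18 GABA and glycine receptor genes none was strong, where the 8.01% of all genes would give few. Gabrg1 stood at 1.38, 1.81, 1.44 and 1.38 and Gabra4 at 0.14, 0.81, -0.07 and 0.05, whereas Gabra6 was undetected. Among 31 monoamine and acetylcholine receptors the muscarinic receptor Chrm1 led at 3.26, 3.92, 2.50 and 3.26, and 8 (25.8%) were undetected, against 19.2% of all genes, 7 of them serotonin receptors.

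Receptors for peptides, lipids and purines included 4 strong genes of 36 (11.1%, against 8.01% of all genes). These were Gpr37l1 at 5.03, 6.25, 5.53 and 5.67, the adhesion receptor Adgrg1 at 4.17, 4.79, 4.19 and 4.36, the thrombin receptor F2r at 3.60, 4.12, 4.00 and 3.76, and the endothelin receptor Ednrb at 3.61, 3.73, 4.25 and 3.60. Adenosine receptors Adora1 and Adora2a and the purine receptors P2rx7 and P2ry1 were middle. The 3 opioid receptors Oprm1, Oprk1 and Oprd1 were undetected, with Cnr2, Lpar1, Npy1r and Sstr1. Of 48 nuclear receptors, which bind hormones or lipids in the nucleus, 29 (60.4%) were detected on all 4 arrays, close to the 64.7% of all genes, and 1 was strong, the orphan receptor Nr2f6 at 4.22, 5.20, 3.63 and 4.56. Thra, a thyroid hormone receptor, stood at 3.15, 2.92, 3.73 and 3.06 and Esrra at 2.37, 3.41, 2.15 and 3.16. The glucocorticoid receptor Nr3c1 and the liver X receptor Nr1h2 were middle, Ppara and Pparg weak, and Ppard was detected on 2 arrays. Receptors of estrogen and progesterone lay at the bottom: Esr1, Esr2 and Pgr were undetected.

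Metabolic genes held the largest share of strong genes of the 3 domains. Of 205 measured, 53 (25.9%) were strong, against 8.01% of all genes, 81.5% were detected on all 4 arrays and 20 (9.76%) were undetected. Widely used enzymes are known to be abundant in most cells, and other tissues were not analysed here. In glycolysis, which splits glucose to pyruvate, 11 of 32 genes were strong. Aldoa stood at 7.99, 8.55, 8.78 and 8.88, Ldha, which makes lactate, at 6.75, 7.46, 7.47 and 7.97, Gapdh at 7.03, 7.15, 7.66 and 7.78, and Gpi1 at 6.93, 7.28, 7.68 and 7.58. All 4 read lower on both WT arrays than on both DMSO arrays, by small steps and within the top 2% of genes. The spread was wider for genes of uptake and control. Slc16a3, the lactate exporter MCT4, stood at 1.01, -2.75, 3.91 and 1.16, and Pfkl, a phosphofructokinase, at 0.86, -0.68, 2.30 and 0.92, both highest on DMSO 1 and lowest on WT 2. The glucose transporters Slc2a1 and Slc2a3 and hexokinase Hk2 were middle with the same extremes.

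In several enzyme families the forms fell into different classes. Hk1 and Hk2 were middle and Hk3 was undetected. Pgk1, Ldha and Ldhb were strong and Pdha1 middle, and the testis forms Pgk2, Ldhc and Pdha2 were all undetected. Pkm was strong and the liver and red cell form Pklr was detected on 2 arrays. Mat2a was strong and the liver form Mat1a undetected, Gys1 was middle and the liver form Gys2 undetected, and Tkt was strong and Tktl1 undetected. Other families divided otherwise or not at all. Cpt1a, Cpt1b and Cpt1c were all middle. The glycogen phosphorylase Pygb was middle, while Pygl of liver and Pygm of muscle were both weak. Among phosphofructokinases, Pfkm was strong, the liver form Pfkl middle and Pfkp weak. Fbp1 of liver was middle while Fbp2 of muscle was detected on WT 1 only.

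**Figure D5:**
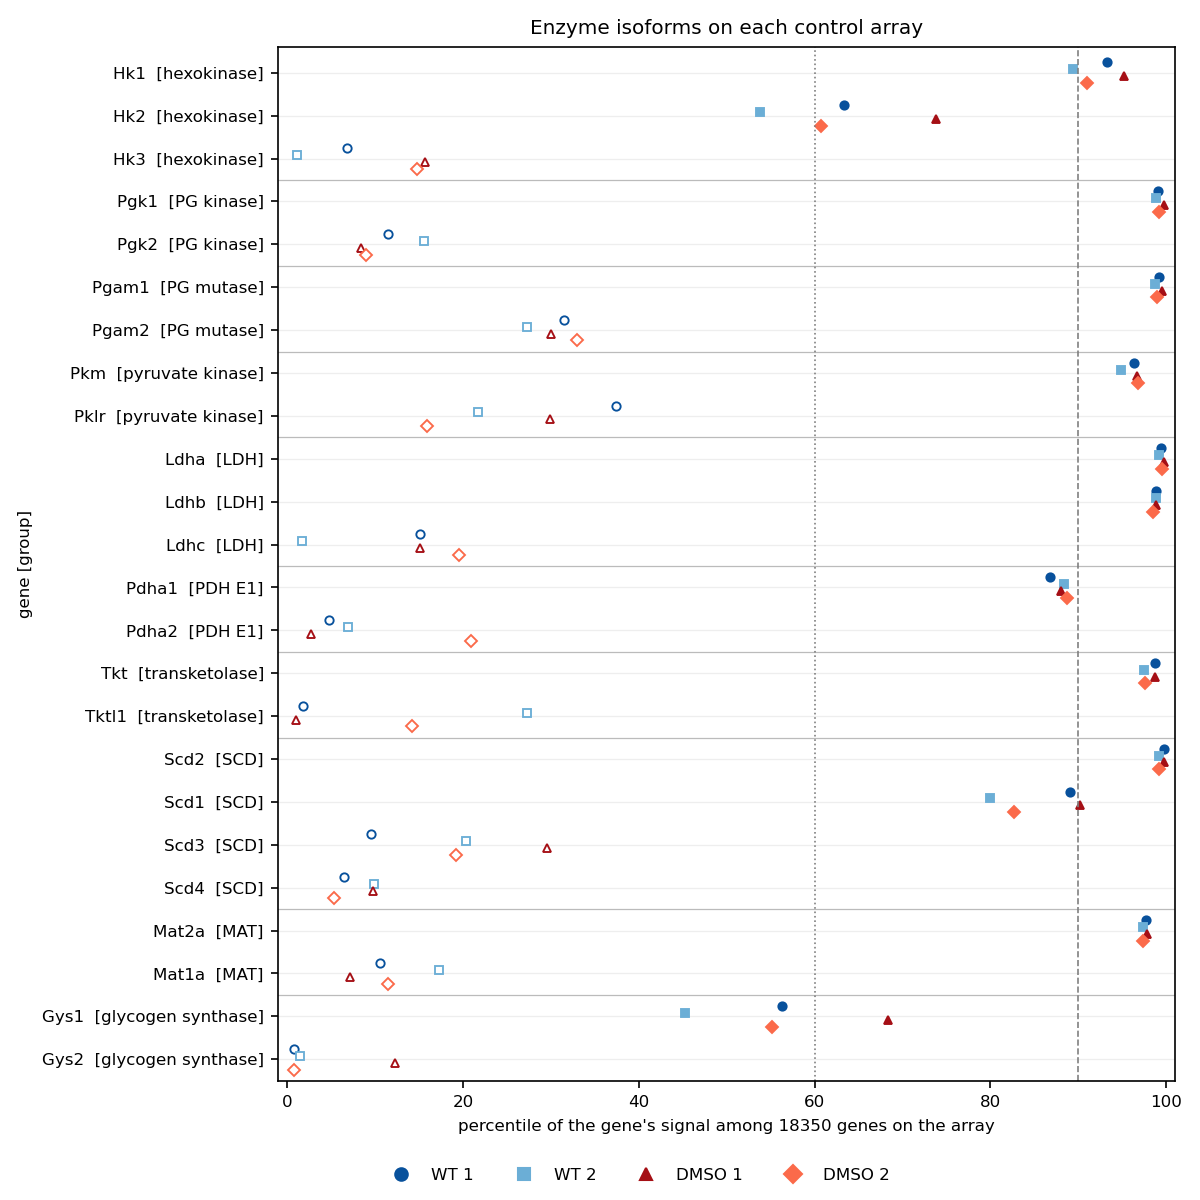
Percentile of 24 genes of 10 enzyme families, chosen because their forms differed in class, (y axis, gene and family) among the 18350 genes of each array (x axis), with 1 symbol per array, open where the gene was detected on fewer than 4 arrays. The form known from liver or testis (Pgk2, Pklr, Ldhc, Pdha2, Mat1a, Gys2) lies left of the form of its family used by most tissues on every array.

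The citric acid cycle, with pyruvate dehydrogenase, had the highest median percentile of all 37 lists, 93.0, and 13 of 23 genes were strong. Mdh2 stood at 7.13, 8.63, 7.10 and 8.29, citrate synthase (Cs) at 6.50, 7.18, 6.69 and 7.24, and Idh3g at 5.42, 6.25, 5.51 and 6.36. Each of them was higher on the second array of each pair, as the strong class was. The cytosolic Idh1 was middle at 0.32, 1.33, 0.29 and 0.94, and Ogdh, a subunit of the oxoglutarate dehydrogenase complex, was the lowest of those detected at 0.13, -0.98, 0.36 and -0.19. In the pentose phosphate pathway, which supplies NADPH and ribose, 4 of 7 genes were strong. Taldo1 stood at 5.71, 6.87, 5.64 and 6.80, Tkt at 5.78, 5.79, 5.89 and 5.75, and G6pdx, the entry enzyme, at 3.71, 4.15, 3.55 and 4.18. Genes of gluconeogenesis and glycogen were lower, with none of 11 strong. Pck2, the mitochondrial form of its enzyme, stood at 3.26, 3.79, 2.99 and 3.42, and G6pc, which releases glucose in liver, was weak at -3.50, -3.48, -3.04 and -3.90.

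Of 21 genes of fatty acid synthesis and desaturation, 18 (85.7%) were detected on all 4 arrays and 4 were strong, a smaller share than the 25.9% of the metabolic genes as a whole. Scd2, the brain form of stearoyl-CoA desaturase, stood at 7.31, 7.46, 7.60 and 7.48, fatty acid synthase (Fasn) at 6.83, 7.01, 6.84 and 7.22, and Srebf1, a transcription factor of lipid synthesis, at 6.12, 6.34, 5.82 and 6.03. The arrays differed little in these genes. Scd1 was middle, Scd3 was detected on DMSO 1 only and Scd4 on none. Elovl3, a fatty acid elongase, was the exception among elongases, at -7.98, 4.60, -8.09 and -5.99: it stood in the top 10% on WT 2 and was not detected on the other arrays. Of 24 cholesterol genes 23 were detected on all 4 arrays and 6 were strong. Hmgcs1 stood at 5.46, 6.19, 5.77 and 5.80, Msmo1 at 4.51, 5.22, 4.81 and 5.25, and Dhcr7 at 4.54, 5.37, 4.60 and 5.15, each higher on the second array of its pair. Cyp46a1, the neuronal cholesterol hydroxylase, was weak, and Cyp7a1 of liver bile acid synthesis was undetected.

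Fatty acid oxidation was represented by 4 strong genes of 17. Acadvl, which starts the oxidation of long chains, stood at 3.55, 4.75, 3.89 and 4.56, Echs1 at 3.36, 4.55, 3.68 and 4.47, and Hadhb at 3.53, 4.16, 3.67 and 4.02, with the same order within pairs. The carnitine transferases Cpt1a and Cpt1c were middle with close values, and Cpt1b, the muscle form, spread from -3.29 on DMSO 2 to 0.15 on WT 2. Of 8 fatty acid binding proteins, Fabp7 was strong and Fabp3, the heart form, middle at 0.73, 1.26, 0.35 and 1.32. Fabp1, Fabp6 and Fabp9 were undetected and Fabp2, Fabp4 and Fabp12 were detected on 1 or 2 arrays.

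Serine synthesis stood high within one-carbon metabolism, where 4 of 19 genes were strong. Phgdh, the first enzyme of serine synthesis, stood at 6.87, 7.93, 6.43 and 7.49, Psat1 at 4.46, 5.17, 4.13 and 5.11 and Psph at 3.10, 4.59, 3.31 and 4.30, the last short of the strong class. Mat2a, which makes S-adenosylmethionine, stood at 5.06, 5.73, 5.11 and 5.59. Bhmt, an enzyme of liver and kidney, was undetected. In amino acid metabolism 5 of 24 genes were strong. Asns, asparagine synthetase, stood at 5.47, 6.51, 5.70 and 6.55, Odc1, the first enzyme of polyamine synthesis, at 5.48, 6.19, 5.65 and 6.35, and Glud1, glutamate dehydrogenase, at 4.87, 5.71, 5.33 and 5.47. These serine and amino acid genes again read higher on the second array of each pair. The glutaminase gene Gls2 was weak, as was the cystine transporter Slc7a11 at -2.67, -3.21, -2.49 and -3.11, and Arg1 and Arg2 were undetected.

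Sirt1, the deacetylase that the series targets, is described for that reason and was chosen after its values were seen. In these control cells it was middle, at 0.16, 0.17, 0.10 and 0.10, with percentiles between 61.2 and 62.3, and the 4 arrays lay within 0.07 of each other. Sirt2 stood at 3.14, 3.07, 3.43 and 3.23, Sirt7 at 2.51, 2.59, 2.69 and 2.88 and Sirt3 at 1.94, 2.59, 2.22 and 2.62, while Sirt4 and Sirt5 were middle and Sirt6 weak. Of the enzymes that make NAD, Nampt, the salvage enzyme, was middle and Nmnat2, Nmnat3 and Qprt were weak. Nadk, which turns NAD into NADP, was the only strong gene of this list of 19, at 4.48, 5.07, 4.45 and 4.84. The NAD-consuming surface enzymes Cd38 and Bst1 were undetected, and Parp1, a nuclear consumer of NAD, was middle.

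Between arrays, most genes moved little. Over the 11880 genes detected on all 4 arrays the median SD of the level was 0.363 and the median range 0.786. The range exceeded 1 log2 unit for 4150 genes (34.9%), 2 units for 572 (4.81%) and 3 units for 122. The widest was that of Grn, which encodes the growth factor progranulin, at 7.92, 9.45, 0.32 and 1.24: near the top of the hierarchy on both WT arrays and in the middle on both DMSO arrays. Syt10, a synaptotagmin, followed with 1.93, 3.64, -4.77 and -4.23, and the chemokine gene Ccl19 had the same split at 0.66, 1.38, -3.78 and -4.34. A single array stood apart in Tril, a Toll-like receptor partner, at 1.60, 7.90, 1.22 and 0.38, in Parpbp, a replication-linked gene, at -1.98, 4.71, -1.14 and -1.94, and in Tex21 at -3.68, 1.73, -3.58 and -3.50, each high on WT 2. Vegfa, the vascular growth factor, had its highest and lowest values on the same arrays as Slc16a3, at 3.81, -0.23, 5.61 and 2.29. In these genes the class depends on which culture was read, and the part of strain, sex, treatment, timing and slide in that was not tested.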

How the data were processed

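RNA of 4 control cultures was amplified, labelled with Cy3 and hybridised to 1-colour Agilent arrays, 1 array per culture, so the number of arrays limits the precision. The intensity values are the authors' deposited scanner files, made with Agilent Feature Extraction 10.7 per the submitters' processing notes, and the processed signal was used as given. The deposited value table of the series holds log2 values whose software is not given in the sources used here. It ranked probes as the scanner signal did (Spearman rho of 1 on every array), is not centred by gene, and served as an alternative.

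Control spots were left out, as were outlier spots unless all spots of a probe on the array were outliers. Spots of a probe were averaged, and log2 signals were centred on each array's 75th percentile. Of 41174 probes, 26918 matched 1 RefSeq symbol and 14256 (34.6%) did not and were not used. A gene was represented by its probe detected on the most arrays, then by the highest mean. A probe was detected where its spots were well above background, or at least as many of them were as were not. No spot was saturated. Genes of chromosome 18 were left out of the comparison of promoters. Calculations used Python 3.11.15, pandas 2.3.3 and limma 3.58.1 (normexp only), and the classification was tested on simulated data. No test between groups was made.

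Members and lists were chosen with earlier results of these data known. Of 707 genes in 37 lists, 25 had no named probe and were not analysed here. A gene could be named by its class. Values were given for the 4 markers, for up to 4 members of each list with the highest mean, 2 with the lowest mean among those detected on all 4 arrays and 2 with the widest range, for the first 20 genes overall and for the 10 with the widest range; some of these are not reported here.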

Additional observations from a re-analysis of the deposited data

Results flagged for a closer look

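The 4 control arrays were taken as 1 set, and a value stood apart where its gap to the nearest other array as a share of the whole range passed Dixon's 95% limit for 4 values, which chance gives in about 1 in 20 sets. The genes examined included genes named for the widest range over these same arrays, so the share that passed cannot be set against that rate. Of 128 gene levels examined, 9 (7.03%) passed the limit. WT 2 was highest in 7 of these: Tril at 7.90, Parpbp at 4.71, Elovl3 at 4.60, Bmpr1a at 2.03, Gabrg1 at 1.81, Tex21 at 1.73 and Cd3e at -0.65. WT 1 stood apart in the remaining genes, the sex-linked Xist at 4.58 and Eif2s3y at -7.72, as the labels of sex have it. All 9 but Bmpr1a and Gabrg1 met the rule for widest range. Of 37 list medians, 3 passed the limit: the blood genes with a lowest median percentile of 27.0 on DMSO 1, the inhibitors of cyclin-dependent kinases with a lowest of 73.3 on WT 1, and the sex-linked genes with a lowest of 9.48 on WT 1.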

How the results depend on the processing

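No paired analysis was possible because the result comes from no test. Of 56 counts over all genes under the alternatives, 49 stayed within 1.5 times the reported count. With the software's laxer flag 984 genes were undetected and 6342 weak. Ranking all probes, named or not, gave 2676 strong and 1192 weak entries, a top 5% limit gave 722 strong genes, a limit at the median gave 2039 weak genes, and the 2 arrays of slide 1 alone gave 5898 weak genes; each follows from the wider or narrower definition. Leaving out each array in turn gave 11885 to 12796 genes detected on all remaining arrays, 3598 to 4092 undetected, 1499 to 1532 strong and 3939 to 4889 weak. Quantile normalization and the authors' deposited table gave the same 1469 strong genes, but both keep the order of probes within an array. With an unchanged detection flag, that outcome was nearly fixed in advance and says nothing about stability. Taking the mean of all probes of a gene shared 1148 of them (78.1%), and normexp, run on the median signal because the files used here hold no mean signal, shared 1398 (95.2%). Of 518 list medians 444 moved by less than the spread between arrays, as did 3297 of 3584 gene levels and percentiles. Of 2072 counts of list members 1855 stayed within 1.5 times. These totals include settings that change only a class definition and cannot move a level or percentile. Ranking among all probes moved 35 of 37 list medians past that spread and 94 of 256 gene levels and percentiles. The mean of all probes moved 19 of 37 medians and 114 of 256 gene levels and percentiles. Signal over background limits the lower end, most on WT 2.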
